A study of Mus musculus with 16 samples.

Results

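The genes of glycolysis and of the response to low oxygen were followed in mouse colon mucosa through 35 genes, taken by their symbols. They cover glucose and lactate transport, the enzymes of glycolysis and the first steps after pyruvate, the hypoxia-inducible factors (HIFs) with their hydroxylases, and other genes known to be induced by hypoxia. Of the 35 genes, 33 had a row with 1 gene symbol in the value table, out of 30702 genes with such a row in all. Gpi1 and Eno1, which encode glucose-6-phosphate isomerase and an enolase, were not analysed here. Where a gene had several rows, the row with the highest mean was used.

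RNA of the colon mucosa was measured on 16 Affymetrix arrays, 1 for each sample, in male C57BL/6J mice. Mccf/f mice carry floxed Mcc, a gene named for mutations in colorectal cancer, and are called wild type (WT) here. VILcreMccf/f mice, called knockout (KO), carry the same floxed alleles with a villin-driven Cre, which acts in intestinal epithelium, so other cells keep Mcc. Sulindac, which inhibits cyclooxygenases, was mixed into the feed at 320 ppm from 6 weeks of age and given for 10 weeks, beside plain control feed. In sulindac-fed mice only inflamed areas of the proximal colon were taken, called lesions here, and in control-fed mice the matching normal mucosa. There were 6 WT control, 3 WT lesion, 3 KO control and 4 KO lesion arrays. Since uninflamed mucosa under sulindac was not among the samples, the drug and the choice of inflamed areas cannot be told apart. The labels do not say whether each sample is its own animal, so p-values measure the spread between these samples.

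Glycolysis splits glucose into pyruvate in the cytosol and yields ATP without oxygen. Its flow is set mainly by glucose uptake, hexokinase, phosphofructokinase and pyruvate kinase, and where oxygen is short or glycolysis runs fast, pyruvate is reduced to lactate and exported. HIF alpha subunits are hydroxylated by oxygen-dependent prolyl hydroxylases and then degraded, and in low oxygen they persist, pair with Arnt and bind DNA at a short core sequence beside many of these genes. The colon surface is low in oxygen already in health, and HIF is active in its epithelium. HIF protein is controlled largely by its breakdown, which mRNA levels do not show.

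The DNA core of HIF sites reads ACGTG or GCGTG, and the 250 bases before each RefSeq transcription start were searched for both on both strands. The promoters of Adm, Bnip3, Hk2, Egln3 and Pfkfb3 are shown because they are 5 of the 6 genes that rose at least 2-fold in lesions of both genotypes, Hif1a being the other, and that of Ldha because it is a textbook HIF target that passed the test in neither. In build GRCm38.p6 of RefSeq they lie at chr7:110627407-110627656 on the plus strand for Adm, chr7:138909507-138909756 on the minus strand for Bnip3 and chr6:82774455-82774704 on the minus strand for Hk2. Those of Egln3 and Pfkfb3 lie at chr12:54203875-54204124 and chr2:11502091-11502340, both on the minus strand, and that of Ldha at chr7:46845554-46845803 on the plus strand. Each reads from 5′ to 3′ towards the start site, with the cores in capitals.
Adm: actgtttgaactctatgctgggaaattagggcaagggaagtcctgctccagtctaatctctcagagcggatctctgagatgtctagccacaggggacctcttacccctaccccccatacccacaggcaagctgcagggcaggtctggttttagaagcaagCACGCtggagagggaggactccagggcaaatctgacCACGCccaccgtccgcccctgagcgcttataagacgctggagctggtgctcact
Bnip3: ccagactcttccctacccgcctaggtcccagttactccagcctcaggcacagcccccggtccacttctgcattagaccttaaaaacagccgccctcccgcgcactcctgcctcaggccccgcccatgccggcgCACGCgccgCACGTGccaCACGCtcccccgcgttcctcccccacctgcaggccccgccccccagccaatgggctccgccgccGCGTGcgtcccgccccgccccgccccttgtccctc
Hk2: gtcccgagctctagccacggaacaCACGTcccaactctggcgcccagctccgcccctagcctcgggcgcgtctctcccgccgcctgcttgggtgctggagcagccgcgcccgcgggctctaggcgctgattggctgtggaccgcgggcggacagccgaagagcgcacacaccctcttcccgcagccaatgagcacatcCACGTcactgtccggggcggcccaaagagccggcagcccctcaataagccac
Egln3: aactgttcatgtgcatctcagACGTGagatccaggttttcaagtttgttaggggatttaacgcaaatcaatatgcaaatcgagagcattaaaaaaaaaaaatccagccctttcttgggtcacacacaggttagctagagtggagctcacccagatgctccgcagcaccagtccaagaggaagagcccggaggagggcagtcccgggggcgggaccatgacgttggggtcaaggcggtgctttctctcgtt
Pfkfb3: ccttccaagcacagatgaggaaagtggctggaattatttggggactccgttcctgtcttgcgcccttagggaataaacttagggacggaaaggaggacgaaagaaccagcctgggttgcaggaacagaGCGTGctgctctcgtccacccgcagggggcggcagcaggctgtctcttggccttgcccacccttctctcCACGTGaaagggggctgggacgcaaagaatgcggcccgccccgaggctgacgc
Ldha: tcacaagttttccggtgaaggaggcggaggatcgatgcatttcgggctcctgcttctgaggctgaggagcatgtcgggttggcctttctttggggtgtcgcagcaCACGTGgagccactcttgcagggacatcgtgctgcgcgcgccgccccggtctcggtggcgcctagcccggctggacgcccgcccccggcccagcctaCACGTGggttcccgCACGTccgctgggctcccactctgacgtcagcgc
Bnip3 and Ldha held 5 cores each, Pfkfb3 held 3, Adm and Hk2 held 2 each and Egln3 held 1. The palindrome CACGTG counts as 2 cores, because ACGTG reads on both of its strands. Pfkfb3 and Ldha have 2 RefSeq promoters each, of which the one with more cores is shown. At least 1 core was found in 38.6% of all 32851 promoters of this length and in 34 of the 44 promoters of these genes, 77.3%. By gene, 28 of the 30 with a promoter entry held a core, against 41.5% of 27025 genes. Their promoters also had a median GC content of 60.4%, against 52.4% in all, and the part of base composition in the difference was not tested. All 13 genes that rose in both genotypes held a core, and so did 8 of the 9 that passed in neither. A match is a string of letters and no measured binding site. Slc2a3, Epas1 and Ndrg1 had no entry.

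The values are log2 levels after RMA, a method that corrects background, aligns the arrays and averages the probes of a gene. They have no unit beyond the array and are compared only within a gene. The median over all rows of an array was 4.90 to 5.05, and RMA gives no detection call. The mean of Slc2a3 in WT controls, 4.96, was at the median of all rows, so its fold is uncertain. Mcc lay between 7.06 and 7.40 in WT arrays and between 6.39 and 6.71 in KO arrays, without overlap. Its difference between genotypes was -0.60 (SE 0.08, limma adjusted p = 0.083) in controls and -0.79 (SE 0.09, adjusted p = 0.0032) in lesions. All 10 epithelial markers, Epcam and Cdh1 among them, were above the median of all rows in every group. In lesions 1 of them rose and 1 fell in WT, and 5 rose and 1 fell in KO. Of all genes 6.98% rose and 8.37% fell in WT, and 8.99% rose and 12.1% fell in KO. The number of arrays limits the precision.

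Lesions of both genotypes had higher mRNA of the glucose carrier Slc2a1, the lactate carrier Slc16a3, of hexokinase Hk2, of the glycolytic regulator Pfkfb3, of Hif1a and of a set of hypoxia-inducible genes led by Adm. The enzymes of the glycolytic steps had a median log2 change of 0.24 in WT and 0.29 in KO. In WT lesions 14 of the 33 genes were higher than in WT controls and 2 were lower, at a limma adjusted p under 0.05 over all 30702 genes. Over all genes 6.98% were higher and 8.37% lower in this comparison, 15.4% in all. In KO lesions 21 of 33 were higher and 1 was lower than in KO controls, against 8.99% and 12.1% over all genes, 21.1% in all. An unadjusted p under 0.05 was found for 23 of 33 genes in WT and 24 in KO, against 27.9% and 31% over all genes. The median log2 change of the 33 genes was 0.31 in WT and 0.46 in KO, against -0.06 and 0.01 over all genes. Lesion and control arrays did not overlap for 21 of 33 genes in WT, where the share over all genes was 19.7%. They did not overlap for 24 of 33 genes in KO, where it was 27.1%. Rises of at least 2-fold were found for 6 of the 33 genes in WT and 11 in KO, against 1.75% and 2.35% over all genes. The 33 genes were chosen with earlier results of these data known, so an excess over all genes is no independent support. All genes also include dim ones, whereas of the 33 only Slc2a3, in WT controls, had a group mean under the median of all rows. The part of brightness in the excess was not tested.

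**Figure D1:**
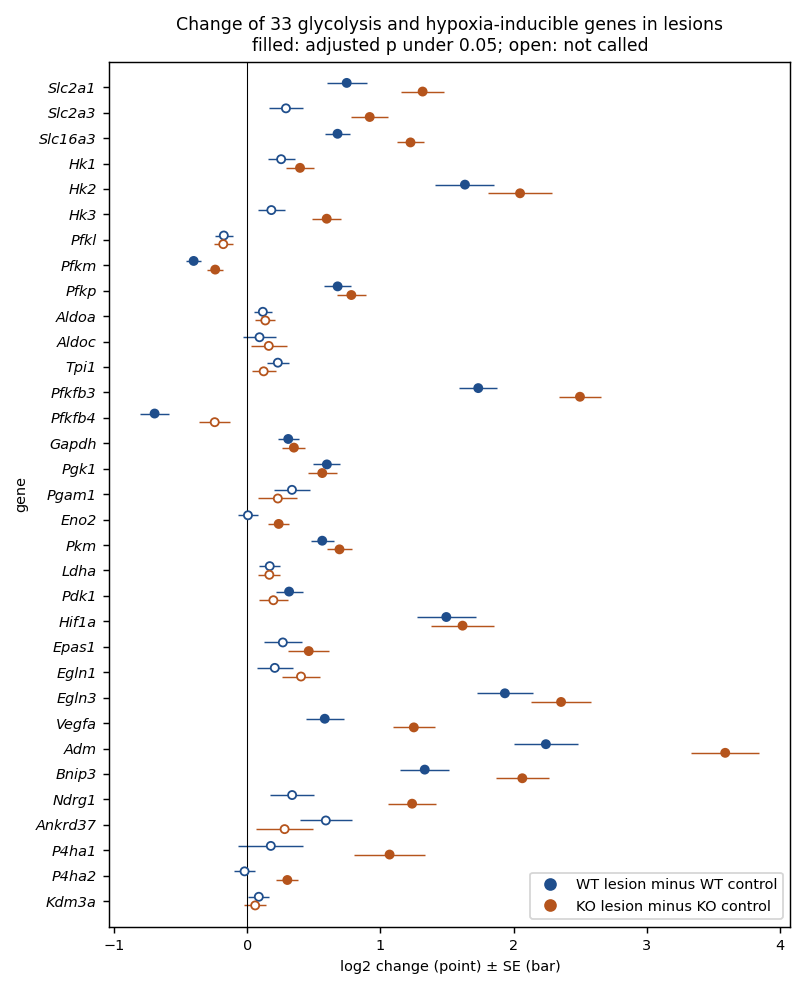
Log2 change between lesions and controls of the same genotype (x axis) for each of the 33 genes (y axis, in the order of their roles), with the SE as a bar, in WT (blue) and KO (orange); filled points passed the test. Adm, Pfkfb3, Egln3, Hk2, Hif1a and Bnip3 lie beyond 1 in both genotypes, and Pfkfb4, Pfkm and Pfkl lie below 0 in both.

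Of the carriers, Slc2a1 encodes the glucose transporter GLUT1, found on most cells. Its log2 level ran from 9.89 to 10.46 in the 6 WT controls, with a median of 10.35, and was 11.13, 10.85 and 11.04 in WT lesions. In KO mice it was 10.22, 10.41 and 9.87 in controls and 11.77, 11.58, 11.17 and 11.43 in lesions. All lesion arrays lay above all controls. Slc2a1 rose by 0.75 (SE 0.15, adjusted p = 0.00288) in WT and by 1.32 (SE 0.16, adjusted p = 3.49e-05) in KO, which is 1.68-fold and 2.49-fold.

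Slc16a3 encodes MCT4, which exports lactate from glycolytic cells. Its levels were 6.27 to 6.51 in WT controls, with a median of 6.31, and 7.18, 6.93 and 6.91 in WT lesions. KO controls had 6.26, 6.26 and 6.18, and KO lesions 7.70, 7.43, 7.19 and 7.52. The KO lesions were thus above all WT lesions, and both above all controls. The rise was 0.68 (SE 0.10, adjusted p = 0.000166) in WT and 1.23 (SE 0.10, adjusted p = 8.47e-07) in KO. Slc2a3, which encodes the high-affinity glucose transporter GLUT3 of neurons and leukocytes, lay between 4.85 and 5.11 in WT controls, with a median of 4.95. WT lesions had 5.32, 5.22 and 5.20, KO controls 4.96, 5.01 and 4.93, and KO lesions 5.77, 6.30, 5.44 and 6.03. Slc2a3 rose in KO alone by the test, with a change of 0.92 (SE 0.14, adjusted p = 0.000195), and had 0.29 (SE 0.13, adjusted p = 0.154) in WT, although its WT arrays did not overlap either.

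Hexokinases trap glucose in the cell as glucose-6-phosphate. Hk2, the inducible form, ran from 8.59 to 9.43 in WT controls, with a median of 9.08, and was 11.04, 10.74 and 10.42 in WT lesions. It was 9.13, 9.62 and 8.66 in KO controls, against 11.51, 11.00, 10.84 and 11.38 in KO lesions. The gap between the highest control and the lowest lesion was close to a full log2 unit in WT and above it in KO. Hk2 rose 3.11-fold in WT (1.64, SE 0.22, adjusted p = 0.000115) and 4.14-fold in KO (2.05, SE 0.24, adjusted p = 2.05e-05). Hk1, the housekeeping form, and Hk3, found in myeloid cells, passed in KO alone, with 0.40 (SE 0.11, adjusted p = 0.0156) and 0.60 (SE 0.11, adjusted p = 0.000905). Their WT changes were 0.25 and 0.18. Without KO control 3 the KO change of Hk1 was 0.28 (adjusted p = 0.0893).

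Pfkfb3 and Pfkfb4, enzymes that make and break fructose 2,6-bisphosphate, the strongest activator of phosphofructokinase, moved in opposite directions in WT. Their relatives Pfkfb1 and Pfkfb2 had no row that could be used. Pfkfb3, the form with high kinase activity that HIF and inflammatory signals induce, was 5.29 to 5.45 in WT controls, with a median of 5.34. WT lesions had 7.45, 7.06 and 6.78, KO controls 5.27, 5.44 and 5.42, and KO lesions 8.11, 7.85, 7.44 and 8.12. Lesion levels stood more than a log2 unit above every control. Pfkfb3 rose 3.33-fold in WT (1.74, SE 0.14, adjusted p = 1.03e-06) and 5.65-fold in KO (2.50, SE 0.15, adjusted p = 4.04e-08). Pfkfb4, a relative that is also known as a hypoxia-inducible gene, was 7.51 to 7.87 in WT controls, with a median of 7.73, and 7.12, 7.07 and 6.86 in WT lesions. KO controls had 7.66, 7.82 and 7.57, and KO lesions 7.47, 7.57, 7.13 and 7.58. All 3 WT lesions lay below all WT controls, whereas KO lesions and KO controls overlapped. Pfkfb4 fell by 0.70 (SE 0.11, adjusted p = 0.000328) in WT, and its change in KO was -0.24 (SE 0.12, adjusted p = 0.164).

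Of the enzymes of the 10 glycolytic steps, hexokinases included, 14 were measured, and 5 rose and 1 fell in WT while 8 rose and 1 fell in KO. Over all genes 6.98% rose and 8.37% fell in WT, and 8.99% rose and 12.1% fell in KO. Phosphofructokinase, which commits sugar to glycolysis, showed different changes for its subunits. Pfkp, the platelet-type subunit, rose by 0.68 (SE 0.10, adjusted p = 0.00022) in WT and 0.78 (SE 0.11, adjusted p = 8.25e-05) in KO. Pfkm, the muscle-type subunit, fell by 0.40 (SE 0.06, adjusted p = 0.000175) and 0.24 (SE 0.06, adjusted p = 0.0105), and Pfkl, the liver-type subunit, had changes of -0.18 in both, which did not pass (adjusted p = 0.0959 and 0.0975). The aldolases Aldoa and Aldoc and triosephosphate isomerase Tpi1 passed in neither genotype, with changes between 0.09 and 0.23.

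In the lower part of the pathway Gapdh, glyceraldehyde-3-phosphate dehydrogenase, was 10.84 to 11.16 in WT controls and 11.28 to 11.42 in WT lesions. The KO controls had 10.88 to 11.17 and the KO lesions 11.40 to 11.43. Lesions lay above controls in both genotypes, and this gene, often used as a reference for mRNA levels, rose by 0.31 (SE 0.08, adjusted p = 0.0145) and 0.35 (SE 0.09, adjusted p = 0.00784). In WT it lost the call after cyclic loess (0.16, adjusted p = 0.364) and without WT lesion 3 (0.28, adjusted p = 0.0821). Pgk1, phosphoglycerate kinase, rose by 0.60 (SE 0.10, adjusted p = 0.000714) in WT and 0.56 (SE 0.11, adjusted p = 0.00147) in KO. Its row in use is named for chromosome 12, while RefSeq places Pgk1 on chromosome X, and the row named for X gave 0.68 and 0.64 (adjusted p = 0.000341 and 0.000701). Pkm, pyruvate kinase, rose by 0.56 (SE 0.09, adjusted p = 0.000374) and 0.69 (SE 0.09, adjusted p = 8.25e-05). Gapdh, Pgk1, Pgam1 and others have near-identical copies in the genome, and how far probes tell them apart was not tested.

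Pgam1, phosphoglycerate mutase, passed in neither genotype (0.34 and 0.23). Eno2, the neuronal enolase, rose by 0.24 in KO (SE 0.08, adjusted p = 0.048) and had 0.01 in WT. That call was lost when any of 12 of the 16 arrays was left out (adjusted p from 0.0546 to 0.159). Ldha, which turns pyruvate into lactate, was 9.55 to 9.87 in WT controls and 9.83 to 9.97 in WT lesions. The KO controls had 9.68 to 9.83 and the KO lesions 9.84 to 10.04. Its arrays overlapped in WT, and the changes of 0.17 in each genotype did not pass (adjusted p = 0.168 and 0.195). Pdk1, a kinase that shuts pyruvate dehydrogenase and a known HIF target, passed in WT alone and by a narrow margin (0.31, SE 0.10, adjusted p = 0.047). Its KO change was 0.20 (SE 0.11, adjusted p = 0.249). The WT call of Pdk1 was lost when any of 11 of the 16 arrays was left out, among them each WT lesion (adjusted p = 0.0856, 0.158 and 0.123 without WT lesion 1, 2 and 3).

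Hif1a, the alpha subunit of HIF found in most cells, had levels of 8.92 to 9.90 in WT controls, with a median of 9.29, and of 10.71, 11.03 and 10.87 in WT lesions. KO controls had 9.89, 9.81 and 8.86 and KO lesions 11.24, 11.11, 10.98 and 11.22. Controls were spread over about a log2 unit, with KO control 3 the lowest, and still lay below all lesions. Hif1a rose 2.82-fold in WT (1.50, SE 0.22, adjusted p = 0.000228) and 3.07-fold in KO (1.62, SE 0.24, adjusted p = 0.00015). Epas1, the alpha subunit of HIF first described in endothelium, ran from 8.79 to 9.34 in WT controls and was 9.29, 9.46 and 9.20 in WT lesions. It was 8.77, 9.0 and 8.66 in KO controls, against 9.17, 9.25, 9.05 and 9.61 in KO lesions. Groups overlapped in WT and not in KO, and Epas1 rose in KO alone (0.46, SE 0.15, adjusted p = 0.0447), against 0.27 (adjusted p = 0.242) in WT. Its KO call was lost when any of 10 of the 16 arrays was left out (adjusted p from 0.0502 to 0.146).

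The prolyl hydroxylases mark HIF for breakdown, and Egln3 is itself induced by HIF. Egln3 was 7.64 to 8.67 in WT controls, with a median of 8.18, and 10.00, 9.93 and 10.36 in WT lesions. In KO mice it was 8.04, 8.30 and 7.67 in controls and 9.88, 10.33, 10.46 and 10.77 in lesions. Every lesion stood more than a log2 unit above every control. Egln3 rose 3.82-fold in WT (1.94, SE 0.21, adjusted p = 1.74e-05) and 5.12-fold in KO (2.36, SE 0.23, adjusted p = 3.17e-06). Egln1, the main oxygen-sensing hydroxylase, passed in neither, with 0.21 in WT and 0.40 in KO (adjusted p = 0.341 and 0.0613).

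Adm encodes adrenomedullin, a peptide that widens vessels and tightens endothelial barriers, and had the largest rise of the 33 genes in both genotypes. Its levels were 6.94 to 7.69 in WT controls, with a median of 7.41, and 9.88, 9.93 and 9.02 in WT lesions. KO controls had 7.40, 7.36 and 7.13, and KO lesions 11.49, 11.01, 10.24 and 10.80. The 3 ranges of controls, WT lesions and KO lesions did not touch. Adm rose 4.73-fold in WT (2.24, SE 0.24, adjusted p = 1.29e-05) and 12.04-fold in KO (3.59, SE 0.26, adjusted p = 1.81e-07). Ordered by log2 change, it was number 111 of 30702 genes in WT and number 44 in KO.

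Bnip3, which directs mitochondria to autophagy, was 6.19 to 6.58 in WT controls, with a median of 6.45, and 7.54, 8.03 and 7.67 in WT lesions. It was 6.29, 6.27 and 6.48 in KO controls, against 8.17, 8.66, 7.86 and 8.97 in KO lesions. All lesions lay above all controls. Bnip3 rose 2.52-fold in WT (1.33, SE 0.18, adjusted p = 0.000143) and 4.19-fold in KO (2.07, SE 0.20, adjusted p = 3.12e-06). Vegfa, the main growth factor of blood vessels, was 7.99 to 8.39 in WT controls, with a median of 8.22, and 8.98, 8.79 and 8.60 in WT lesions. KO controls had 8.20, 8.15 and 8.35, and KO lesions 9.83, 9.73, 9.09 and 9.29. Both sets of lesions were above controls, and KO lesions were above WT lesions. Vegfa rose by 0.58 (SE 0.14, adjusted p = 0.0112) in WT, a call lost without WT lesion 1 (0.49, adjusted p = 0.0674), and by 1.25 (SE 0.16, adjusted p = 3.56e-05) in KO.

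Ndrg1, a stress-responsive gene of differentiated epithelium, was 9.18 to 9.97 in WT controls, with a median of 9.64, and 10.17, 9.78 and 9.93 in WT lesions. It was 9.66, 9.20 and 9.42 in KO controls, against 10.97, 10.83, 10.40 and 10.46 in KO lesions. WT groups overlapped, KO groups did not, and Ndrg1 passed in KO alone with 1.24 (SE 0.18, adjusted p = 0.000122), against 0.34 (adjusted p = 0.197) in WT. P4ha1 and P4ha2, the catalytic subunits of collagen prolyl hydroxylase, also passed in KO alone, with 1.07 (SE 0.26, adjusted p = 0.00819) and 0.30 (SE 0.08, adjusted p = 0.0161). Their WT changes were 0.18 and -0.02, and without KO control 1 P4ha2 had 0.28 in KO (adjusted p = 0.0731). Ankrd37 and the histone demethylase Kdm3a passed in neither, with 0.59 and 0.09 in WT and 0.28 and 0.06 in KO.

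**Figure D2:**
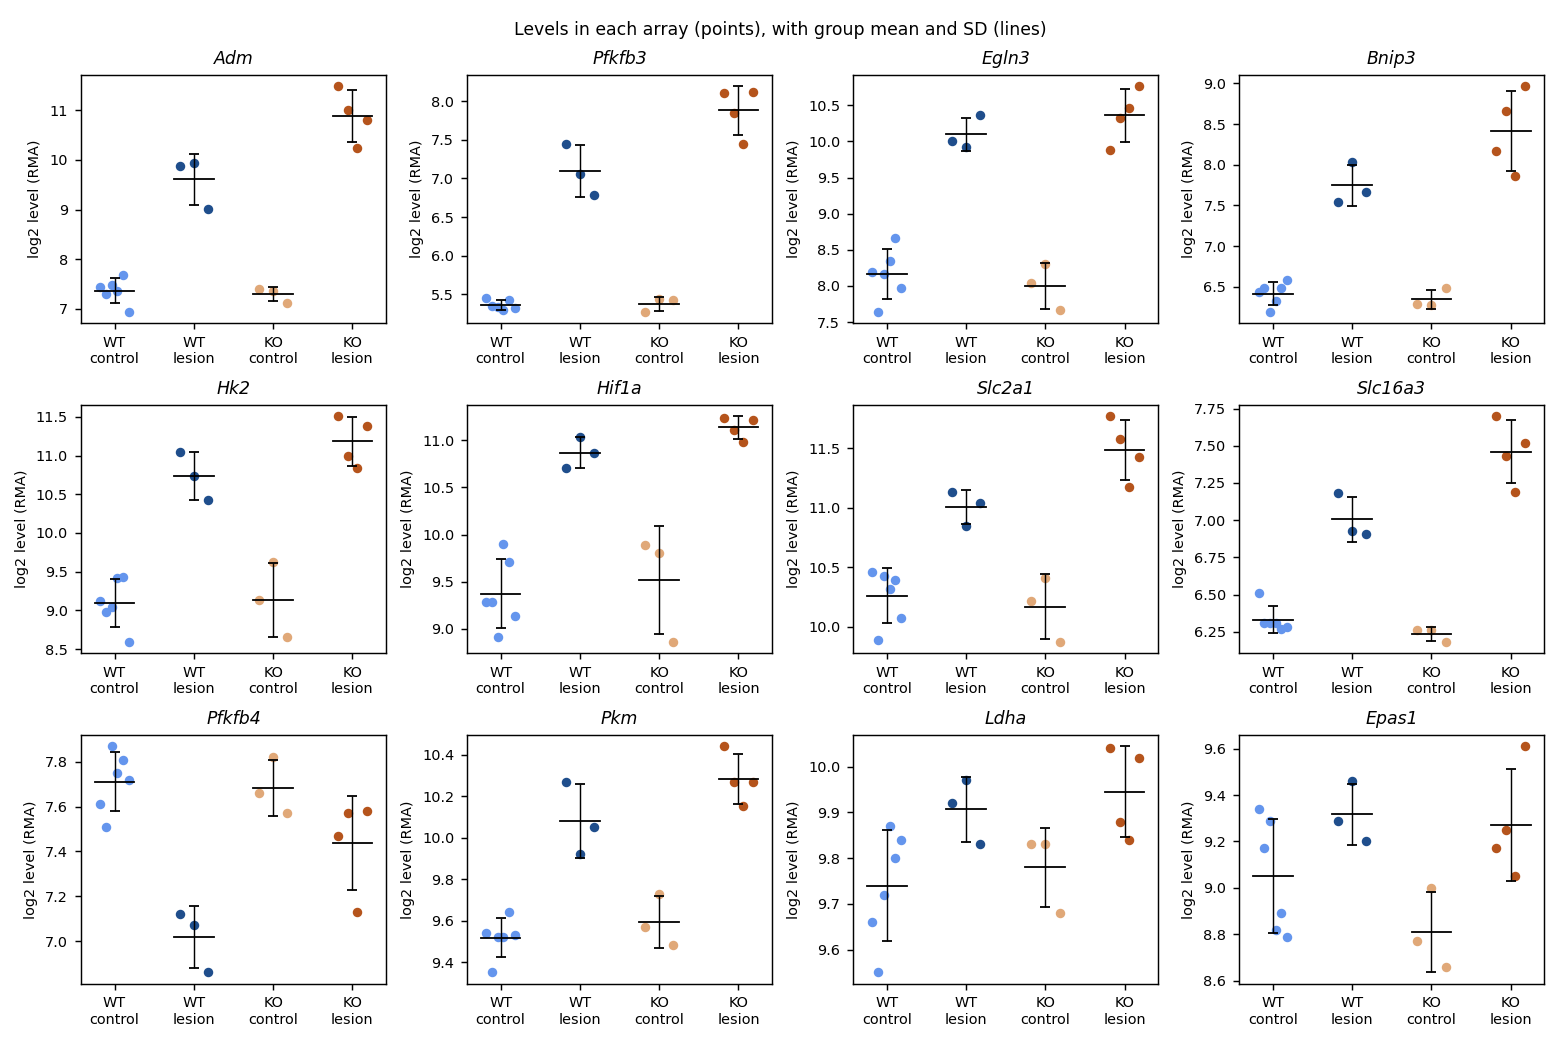
Log2 level (y axis of each panel, with its own range) of 12 of the genes in every array (points) of the 4 groups (x axis), with group means and SDs as lines. Adm reaches 9.02 to 9.93 in WT lesions and 10.24 to 11.49 in KO lesions, the 3 WT lesions of Pfkfb4 lie below all controls, and the WT groups of Ldha overlap.

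Calls in 1 genotype alone do not show that the genotypes differ, and the difference was tested directly. The samples' own numbers form a low and a high series. The lesions are all in the low one, the KO controls all in the high one, and WT controls in both, 3 arrays each, so in KO the series and the diet cannot be told apart. Within the low series the WT response had 16 members higher and 2 lower, against 5.17% and 4.56% over all genes. With the series as a covariate, estimated from WT controls alone, the KO response had 17 members higher and 0 lower, against 4.52% and 3.66% over all genes. Hk1, Pfkm, Eno2, Epas1, P4ha1 and P4ha2 lost their KO call there (adjusted p from 0.186 for Pfkm to 0.968 for Epas1).

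Genes of other cell types were also higher in lesions, where 6.98% of all genes rose in WT and 8.99% in KO. Of 10 neutrophil markers, 6 rose in WT and 7 in KO, led by S100a8 and S100a9. Their mean log2 level per array was 4.84 to 5.08 in WT controls and 4.84 to 5.04 in KO controls, where S100a8, S100a9, Retnlg and Ngp lay under the median of all rows. It was 6.58 to 7.17 in WT lesions and 7.39 to 8.39 in KO lesions. Monocyte and macrophage markers rose for 9 of 10 genes in WT and 10 of 10 in KO, with means of 6.01 to 6.42 and 6.16 to 6.25 in WT and KO controls and of 7.77 to 7.96 and 7.90 to 8.29 in the lesions. Fibroblast markers rose for 6 of 7 in each genotype, with means of 5.96 to 6.41 in controls and 7.43 to 7.97 in lesions, and T and NK cell markers for 4 of 7 in each. Of 5 B and plasma cell, 6 smooth muscle and 2 red blood cell markers 0 rose, and of 6 striated muscle markers 1 rose in KO. Endothelial markers rose for 2 of 8 in WT and 3 of 8 in KO. Their part in the results was not tested. In such bulk samples, more cells of a type and more RNA per cell cannot be told apart.

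**Figure D3:**
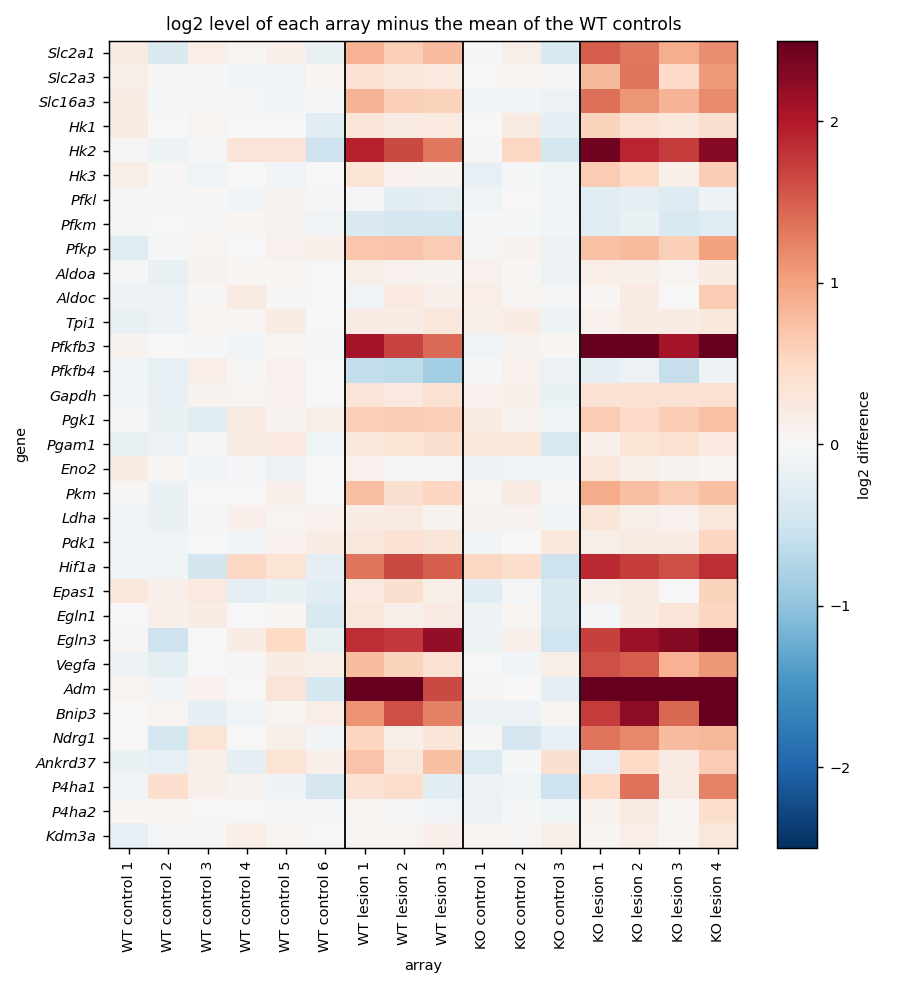
Log2 level of each of the 33 genes (y axis) in each of the 16 arrays (x axis, black lines between groups) minus the mean of the WT controls; red is higher and blue lower, and larger differences keep the end colour. Lesion columns are red for a subset of genes, and KO lesion 3 is the lowest of the KO lesions for 23 of the 33.

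On control feed none of the 33 genes differed between KO and WT, and 0 had an unadjusted p under 0.05. Over all genes limma called 0 (0%), and 641, or 2.09%, had an unadjusted p under 0.05. Groups did not overlap for 1 of 33 genes, Slc16a3, against 1.39% over all genes. Differences of the 33 genes ran from -0.25 to 0.15 with a median near 0. The lowest p belonged to Epas1, Eno2 and P4ha2, at -0.24, -0.10 and -0.10 (adjusted p = 0.9995 each). P4ha2 was 5.93 to 6.04 in WT controls and 5.84, 5.95 and 5.88 in KO controls, and Eno2 was 5.35 to 5.69 and 5.36, 5.40 and 5.43. Groups overlapped for both, as they did for Epas1, given above. The 95% interval of the difference was -0.58 to 0.43 for Adm, -0.29 to 0.32 for Pfkfb3, -0.43 to 0.51 for Hk2 and -0.32 to 0.61 for Hif1a.

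Between KO and WT lesions, the mRNA of Pfkfb3 was higher in KO by 0.78 (SE 0.15, adjusted p = 0.0466), or 1.72-fold, and no other member passed. Over all genes 0.248% were called higher in this comparison, 76 genes, and 0.0586% lower, 18 genes, which makes 0.306% in all. The lowest KO lesion, 7.44, lay just under the highest WT lesion, 7.45. Lesions with the same replicate number deviated together over all genes (r = 0.47, 0.30 and 0.54). With that number as a replicate block Pfkfb3 had 0.75 with an adjusted p of 0.171, and 0 members passed. The block spanned all 16 arrays, although same-numbered KO and WT controls deviated in opposite directions (r from -0.34 to -0.24). It was thus no paired test of the lesions alone. The same-numbered KO and WT controls lie in different number series. Whether KO and WT controls of the same series deviated together was not tested. The call of Pfkfb3 was also lost when any 1 array other than KO lesion 3 was left out (adjusted p from 0.0557 to 0.27). Adm was next, with a difference of 1.27 (SE 0.26, adjusted p = 0.0523), followed by Slc2a3 with 0.64 (SE 0.14, adjusted p = 0.0721), Vegfa with 0.69 (SE 0.16, adjusted p = 0.0768) and Slc16a3 with 0.45 (SE 0.10, adjusted p = 0.0835). KO lesions lay above all WT lesions for these 4 and for Slc2a1, Ndrg1 and Pfkfb4, 7 of 33 genes, against 9.39% of all genes whose lesions did not overlap in either direction.

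An unadjusted p under 0.05 was found for 13 of 33 genes, against 13.4% over all genes, and 27 of 33 differences were above 0, as were 60% over all genes. The genes with differences near 0 included Ldha (0.04), Pgk1 (0.03), Gapdh (0.06), Aldoa (0.02) and Tpi1 (-0.04). Egln3 and Hif1a, with large rises in both genotypes, had differences of 0.26 and 0.27 (adjusted p = 0.626 and 0.631).

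KO lesion 3 was the lowest of the 4 KO lesions for 23 of the 33 genes and had the lowest neutrophil mean among them, 7.39 against 7.98 to 8.39. Its epithelial (11.52 against 11.62 to 11.69), monocyte and macrophage (7.90 against 8.13 to 8.29) and T and NK cell means (5.24 against 5.38 to 5.71) were also the lowest. Its fibroblast (7.97 against 7.43 to 7.78) and endothelial means (6.35 against 5.71 to 5.92) were the highest. For the other marker lists it was not extreme. Other groups also held a low array. KO control 3 was the lowest KO control for 22 of the 33 genes, and WT lesion 3 the lowest WT lesion for 15. With KO lesion 3 left out, 10 members were higher in KO than in WT lesions. They were Slc2a1, Slc2a3, Slc16a3, Hk3, Pfkfb3, Pfkfb4, Vegfa, Adm, Bnip3 and Ndrg1. Adm then had 1.49 (adjusted p = 0.00238) and Pfkfb3 0.93 (adjusted p = 0.00108), while over all genes 687 were higher and 1010 lower. That array was singled out on these same values, and leaving out the lowest array of a group raises its mean. The calls without it are thus no separate support for a difference. Of the 10 neutrophil markers, Retnlg, Cxcr2 and Csf3r were higher in KO lesions with all arrays, by 2.29, 1.68 and 1.36. The part of these and of the other marker lists in the result was not tested.

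The log2 change from control to lesion lay higher in KO than in WT for 25 of 33 genes, and over all genes the difference of responses was above 0 for 61.9%. None of the 33 passed the test of that difference, the interaction of genotype and diet, in which limma called 1 gene of 30702 (0.00326%). Of the members, 12 had an unadjusted p under 0.05, against 11.1% over all genes. The lowest belonged to Slc16a3 (0.55, SE 0.14), Adm (1.35, SE 0.35) and Ndrg1 (0.90, SE 0.24), each with an adjusted p of 0.396. Without KO lesion 3, 6 members passed, namely Slc2a3, Slc16a3, Hk3, Pfkfb3, Vegfa and Adm, and over all genes 280 were higher and 238 lower. The limit given above holds here too, since that array was singled out on these same values. Both genotypes' own values stand above, and the comparisons share arrays.

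**Figure D4:**
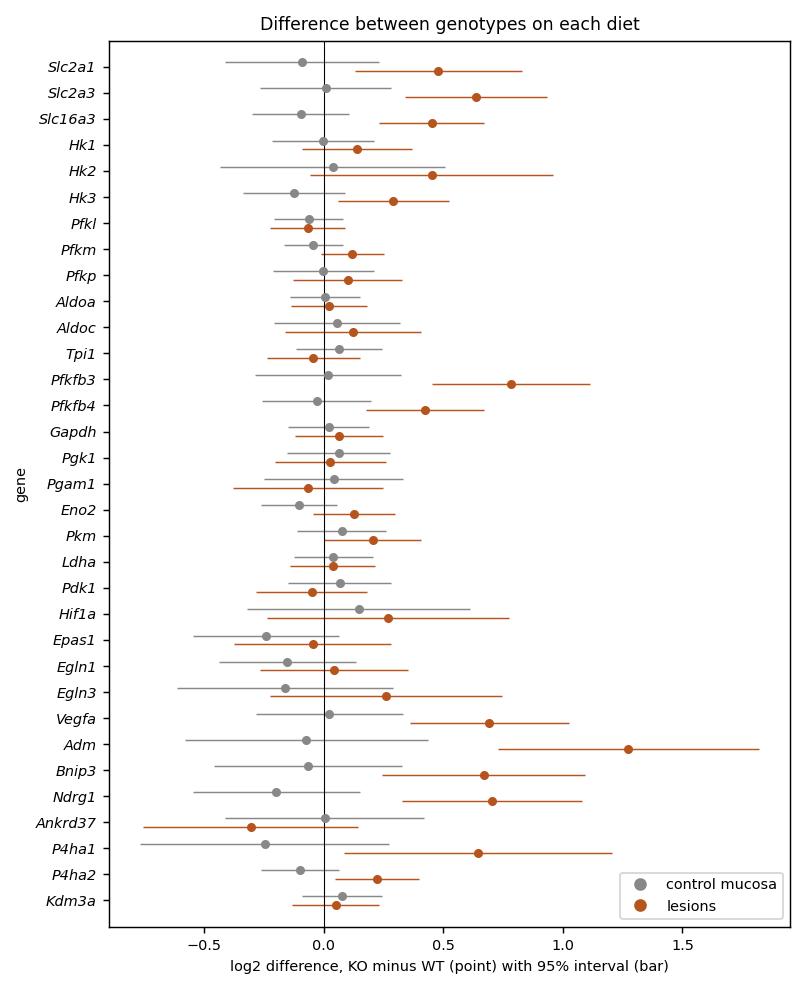
Log2 difference between KO and WT (x axis, KO minus WT, with its 95% interval as a bar) for each of the 33 genes (y axis) in control mucosa (grey) and in lesions (orange). Differences lie between -0.25 and 0.15 in control mucosa, and in lesions that of Adm is the largest at 1.27.

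Other genes of the same pathways were counted from lists of each pathway. The shares over all genes were 6.98% higher and 8.37% lower in WT, and 8.99% higher and 12.1% lower in KO. Of 30 other hypoxia-inducible genes, 12 rose and 1 fell in WT and 17 rose and 1 fell in KO. Nos2, inducible nitric oxide synthase, rose by 4.13 (SE 0.27, adjusted p = 1.08e-07) and 4.65 (SE 0.29, adjusted p = 5.32e-08), and Hmox1, heme oxygenase, by 1.55 and 2.08 (adjusted p = 0.000207 and 2.08e-05). Hilpda, a lipid droplet protein induced by hypoxia, was the 1 gene of this list that was higher in KO than in WT lesions (0.80, SE 0.13, adjusted p = 0.0251). Of 10 genes for HIF partners and other oxygen sensors, 0 passed in either genotype, with 3 at an unadjusted p under 0.05 in each. The share of all genes at that unadjusted p was 27.9% in WT and 31% in KO.

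Of 8 gluconeogenesis genes 4 fell in WT and 5 in KO, and 0 rose. Pck1, cytosolic phosphoenolpyruvate carboxykinase, fell by 2.19 (SE 0.23, adjusted p = 1.33e-05) and 2.05 (SE 0.25, adjusted p = 3.25e-05). Of 11 genes for the entry of pyruvate into mitochondria, the kinases that inhibit pyruvate dehydrogenase included, 4 fell in WT and 8 in KO, and 0 rose. Pdk2, one of these kinases like Pdk1, fell by 1.38 (SE 0.19, adjusted p = 0.000135) and 1.31 (SE 0.21, adjusted p = 0.000254), and Pdk4 fell by 2.01 in WT (SE 0.52, adjusted p = 0.0146) and had -0.84 in KO (adjusted p = 0.354).

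Of 12 other sugar and monocarboxylate carriers, 3 fell in WT, and 1 rose and 5 fell in KO. Slc16a1, which encodes MCT1, the carrier for butyrate and lactate uptake, fell by 0.78 (SE 0.12, adjusted p = 0.00035) and 0.65 (SE 0.13, adjusted p = 0.00196), while Slc16a3 rose. Slc16a7, its relative MCT2, fell by 1.05 and 1.04 (adjusted p = 8.42e-07 and 1.37e-06). In the pentose phosphate pathway, which branches from glucose-6-phosphate, 3 of 6 genes rose in WT and 2 rose and 1 fell in KO, led by Pgd at 0.63 and 0.54 (adjusted p = 0.000889 and 0.00377). Of 16 genes for other glycolytic isoforms and glycogen, 3 fell in WT, and 2 rose and 3 fell in KO. The shares over all genes were 8.37% lower in WT, and 8.99% higher and 12.1% lower in KO. Pygl, a glycogen phosphorylase, rose by 1.47 in KO (SE 0.23, adjusted p = 0.000254) and had 0.38 in WT (adjusted p = 0.262), and Gbe1, the glycogen branching enzyme, fell by 0.70 and 0.84 (adjusted p = 0.00086 and 0.000269).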

How the data were processed

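Total RNA of 16 mouse colon mucosa samples was measured on Affymetrix arrays. The deposited values are log2 levels made by the authors with RMA in Affymetrix Power Tools 1.16.1, per the submitters' processing notes. The build of the annotation is not given in the sources used here. Of 72688 rows, 32750 were in the probe-to-gene table, 31258 with 1 symbol and 1492 with several. Symbols were updated through RefSeq, which changed 1789, and the row with the highest mean was kept for the 441 genes with several. Arrays of a group correlated at 0.980 to 0.992 and shared at most 0.0289% identical values, so none was a duplicate.

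Samples were grouped by genotype and diet labels. Two-sided limma tests (version 3.58.1, R 4.3.3) ran over all 30702 genes, with the 4 groups fitted together, and genes were called at a Benjamini-Hochberg adjusted p under 0.05. The fit was tested on simulated data. Levels of every array are given for the 8 largest called changes per response, for members called between genotypes and for the 3 lowest p otherwise, and at most 3 genes are named per other list. The members and lists were chosen with earlier results of these data known.

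Replicate numbers of the labels were taken to pair samples where every correlation of same-numbered deviations was above 0.1, which held for lesions of KO and WT alone (0.30 to 0.54). In the WT response it was 0.097 to 0.35, in the KO response -0.30 to -0.15 and between control groups -0.34 to -0.24. In the KO response and between control groups, the same-numbered samples lie in different number series. Whether KO and WT controls of the same series deviated together was not tested. Alternatives were the replicate block, the number series as covariate, random block or alone, dim genes left out, mean of rows, all rows, median centring, cyclic loess, another variance prior, array weights, the compared groups alone and each array left out. Promoters came from RefSeq GRCm38.p6.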

Additional observations from a re-analysis of the deposited data

Results flagged for a closer look

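Of 68 groups of 4 or 6 arrays that were tested gene by gene, the 33 genes and Mcc, 3 held an array far from the others of its group by Dixon's test, and chance gives about 1 in 20. Slc16a3 stood at 6.51 in WT control 1, above 6.27 to 6.31 in the other WT controls. Pdk1 stood at 7.72 in KO lesion 4, above 7.32 to 7.38 in the other KO lesions. Egln1 stood at 8.14 in WT control 6, below 8.52 to 8.70 in the other WT controls.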

How the results depend on the processing

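No called change of a member turned its direction. Of 165 member differences refitted with the replicate block and without KO lesion 3, 13 and 4 turned sign. None of these was called in either fit, and all were at most 0.16 in size with all arrays. Among them were the differences between lesions of Ldha (0.04 to -0.003) and Pgk1 (0.03 to -0.04) and the WT response of Eno2 (0.01 to -0.05) with the block, and that of Epas1 between lesions (-0.05 to 0.03) without KO lesion 3. Of the members called in the WT response, 13 of 16 kept their call in all 29 alternatives, and in the KO response 16 of 22 did in all 28. Rescaling moved the median of all genes by less than 0.1 in every comparison. In the WT response, leaving out 1 array gave 12 to 16 members higher and 2 to 3 lower, and 1559 to 2359 genes higher and 1598 to 2819 lower over all genes, with 1598 without WT lesion 3. The lower number series alone gave 1399 genes lower in place of 2569. In the KO response, leaving out 1 array gave 18 to 21 members higher and 1 lower, and 2166 to 2888 genes higher and 2306 to 4147 lower over all genes, with 2306 without KO control 1. Members lower were 0 with the series covariate, 0 with the compared groups alone and 2 after median centring, and the covariate gave 1389 genes higher and 1125 lower in place of 2760 and 3710. Between control groups, 1 gene was lower after cyclic loess and with array weights, and leaving out 1 array gave 0 members and 0 to 2 genes higher and 0 to 1 lower.

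Between KO and WT lesions, leaving out 1 array gave 0 to 10 members higher and 0 lower, and 3 to 687 genes higher and 1 to 1010 lower in place of 76 and 18. The 10, 687 and 1010 came without KO lesion 3, and each other array left out gave 0 members. Members higher were 0 with the replicate block, with the series covariate, in the lower series alone, over all rows, after median centring, after cyclic loess and with the compared groups alone, 2 with dim genes left out and 9 with array weights. Over all genes, higher and lower calls were 2 and 0 with the replicate block, 1 and 1 in the lower series alone, 4 and 1 over all rows, 23 and 6 after centring, 449 and 265 with array weights and 1 and 0 with the compared groups alone. The covariate gave 45 higher, cyclic loess 5 lower and the other variance prior 9 lower. In the interaction, leaving out 1 array gave 0 to 6 members and 1 to 280 genes higher and 0 to 238 lower, with the highest counts without KO lesion 3. The cause of these shifts was not tested. By the cutoff of 0.1, replicate numbers were not taken to pair the samples of either response. In the WT response every correlation was above 0 all the same (0.097 to 0.35). The replicate block gave 15 members higher and 2 lower in WT and 19 and 1 in KO. The shares over all genes in that fit are not given here. Without the block they were 6.98% higher and 8.37% lower in WT, and 8.99% and 12.1% in KO. Fits within 1 number series were not run for the KO response and the interaction, whose groups do not share a series, nor was the interaction with fewer groups, since it uses all 4. RMA compresses differences near background, which limits dim genes such as Slc2a3.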
